A study of Homo sapiens with 12 samples.

Results

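This account covers 33 human genes whose products remove R-loops, prevent them or repair the damage linked to them, out of 19866 protein-coding genes with a usable position. They were taken by name, and for each gene the peaks within 1 kb of either gene boundary and those inside the gene were read from the deposited peak lists. The genes were set in 6 groups by role, with 4 RNase H genes, 9 helicase genes, 4 topoisomerase genes, 5 genes of THO and mRNA export, 5 Fanconi or BRCA genes, and 6 nuclease or checkpoint genes. The rule names genes by their known roles and sets no threshold on a measured value, but the genes were chosen with earlier results of these data known.

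The study asked whether the nuclease REXO4 and the nuclease RNaseH1 sit on R-loops, and used chromatin immunoprecipitation followed by sequencing (ChIP-seq) with beads against the Flag tag. All libraries came from U2OS, an established human osteosarcoma line, in 2 stable derivatives that carry a tet-on transgene for a nuclease-dead protein, REXO4-D386A in one and RNaseH1-D210N in the other. Each derivative was grown with doxycycline at 1 µg/ml or without it for about 60 h. The 12 libraries comprise 2 ChIP libraries and 1 input for every combination of derivative and doxycycline state. The endogenous REXO4 and RNASEH1 genes are present in every group, with and without doxycycline, and the labels do not say whether each derivative is a single clone.

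The data used here are 2 peak lists on build hg38, with 54623 peaks for RNaseH1-D210N and 1460 peaks for REXO4-D386A. A list gives 1 position, 1 fold enrichment and 1 q-value for each peak and no value for each library. Differences between replicates or between doxycycline states therefore could not be measured, and no test was made. Fold enrichment is the number of sequenced fragments at a peak's highest point, its summit, divided by the number expected there, with 1 added to each. The intervals given with folds are 95% exact Poisson intervals of the fragment count and cover counting error only. They take the expected number as exact, so any error in that number is left out. Folds were compared only within a list, because the lists differ in depth and in the number of peaks.

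An R-loop is a stretch of RNA paired with one DNA strand while the other DNA strand is left single, and it forms most readily behind RNA polymerase in GC-rich promoter sequence. Cells limit R-loops by coating and exporting the new transcript, by relaxing the DNA supercoils that transcription leaves behind, by unwinding the hybrid with helicases, and by cutting its RNA with RNase H. Where R-loops meet replication forks, Fanconi and BRCA proteins and their nuclease partners act on the resulting damage. The question followed here is where the 2 nuclease-dead proteins were found on the genes that encode these factors.

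The sequences below carry the contrast at gene starts, from a start inside a strong RNaseH1 peak to a start just outside a weak one. Each is the 250 bases before the start of the gene, written 5′ to 3′ on the gene's own strand, from RefSeq on GRCh38.p14. Capitals mark the bases covered by a RNaseH1 peak in the first 4 and by a REXO4 peak in the last. DDX1 lies at chr2:15591618-15591867 on the plus strand, RNASEH1 at chr2:3558334-3558583 on the minus strand, ERCC4 at chr16:13919904-13920153 on the plus strand, FANCM at chr14:45135680-45135929 on the plus strand, and ALYREF at chr17:81891588-81891837 on the minus strand.
DDX1: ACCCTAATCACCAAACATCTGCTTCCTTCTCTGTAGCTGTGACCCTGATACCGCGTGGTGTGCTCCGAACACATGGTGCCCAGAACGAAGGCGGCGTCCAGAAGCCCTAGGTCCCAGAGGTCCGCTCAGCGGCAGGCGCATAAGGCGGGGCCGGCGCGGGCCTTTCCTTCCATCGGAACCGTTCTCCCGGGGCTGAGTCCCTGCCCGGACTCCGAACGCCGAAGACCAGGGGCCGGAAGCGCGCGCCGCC
RNASEH1: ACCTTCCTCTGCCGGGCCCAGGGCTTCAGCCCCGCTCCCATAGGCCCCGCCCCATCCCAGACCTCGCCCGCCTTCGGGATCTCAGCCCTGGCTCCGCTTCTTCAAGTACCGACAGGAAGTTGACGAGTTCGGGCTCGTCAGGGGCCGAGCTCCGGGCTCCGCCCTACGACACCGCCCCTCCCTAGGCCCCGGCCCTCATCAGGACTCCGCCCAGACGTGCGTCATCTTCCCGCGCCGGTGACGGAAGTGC
ERCC4: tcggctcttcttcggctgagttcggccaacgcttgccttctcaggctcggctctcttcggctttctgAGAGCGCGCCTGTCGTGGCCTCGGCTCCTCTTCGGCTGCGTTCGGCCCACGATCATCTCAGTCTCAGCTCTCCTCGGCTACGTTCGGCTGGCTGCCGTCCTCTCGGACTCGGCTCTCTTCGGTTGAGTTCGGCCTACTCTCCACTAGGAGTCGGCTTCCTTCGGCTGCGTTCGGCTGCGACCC
FANCM: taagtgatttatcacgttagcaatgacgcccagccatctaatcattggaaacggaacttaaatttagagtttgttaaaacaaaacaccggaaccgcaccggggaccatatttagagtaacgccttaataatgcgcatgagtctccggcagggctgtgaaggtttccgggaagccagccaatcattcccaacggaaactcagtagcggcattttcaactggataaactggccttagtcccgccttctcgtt
ALYREF: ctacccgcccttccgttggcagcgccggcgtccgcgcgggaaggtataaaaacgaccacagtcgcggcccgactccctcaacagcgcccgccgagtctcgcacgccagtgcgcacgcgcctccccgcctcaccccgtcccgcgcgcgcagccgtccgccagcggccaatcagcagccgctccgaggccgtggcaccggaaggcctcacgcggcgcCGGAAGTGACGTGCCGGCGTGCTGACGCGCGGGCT
All 250 bases lay under the peak at DDX1 and RNASEH1, 183 at ERCC4 and none at FANCM. The REXO4 peak of ALYREF reached 35 bases before the start. The RNaseH1 peak covered all 250 of these bases in 19 of the 31 genes whose start is in the RefSeq promoter table, some of them in 9, and none in DDX39B, BRCA1 and FANCM. THOC7 and WRN have no entry in that table.

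RNaseH1-D210N peaks stood at the boundaries of 32 of the 33 R-loop factor genes (97.0%), against 67.1% of all protein-coding genes. At the starts alone the count was 30 of 31 genes, against 69.9% of protein-coding genes with a listed start. Peaks overlapped the gene body in 32 of 33 genes, against 76.6%. DDX39B was the gene without a peak in each of these counts. At the gene end, peaks were listed for FANCA, MRE11 and ATR, 3 of 31 genes (9.68%), a share near the 11.5% of protein-coding genes. The peaks of these factor genes thus lay at their starts far more often than at their ends.

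REXO4-D386A peaks were rare throughout its shorter list. They stood at the boundaries of DDX5, WRN, THOC7 and ALYREF, 4 of 33 genes (12.1%), against 3.82% of all protein-coding genes. At listed starts the count was 2 of 31 genes, DDX5 and ALYREF, against 4.09%, and over the gene body it was 2 of 33 genes, THOC7 and ALYREF, against 5.06%. The boundary count rests on weak peaks. It was 3 of 33 genes, without WRN, against 3.47% of protein-coding genes at a −log10 q of 2 or more, where q is the caller's p adjusted over the genome and a higher −log10 q marks a clearer peak. At a −log10 q of 5 or more it was 1 of 33 genes, ALYREF, against 2.12%, so the excess over protein-coding genes was not seen at that threshold. The counts by group given below stand beside the same shares of protein-coding genes. At 3.82%, most groups of 4 to 6 genes would hold no REXO4 peak, so its absence does not set a group apart.

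**Figure D1:**
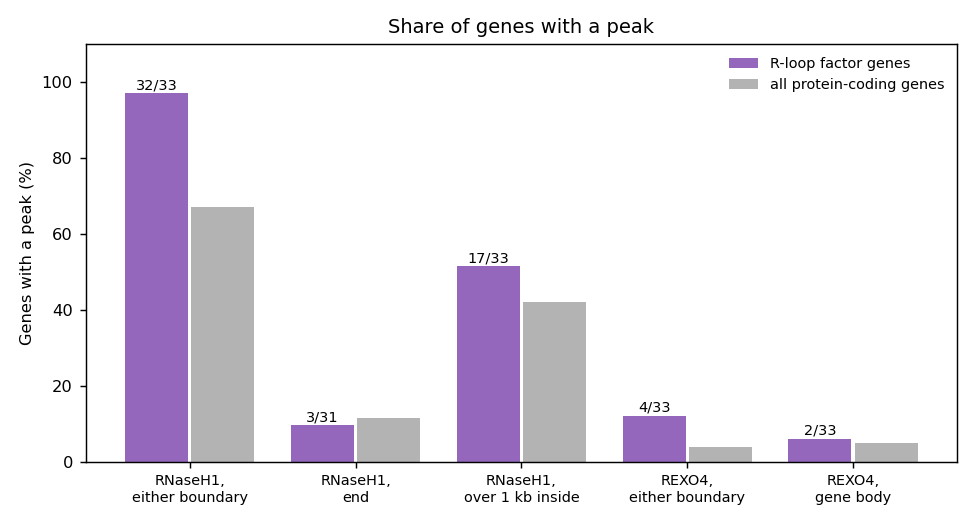
Share of genes with a peak, in percent, for the 33 R-loop factor genes (left bar of each pair, with counts) and all protein-coding genes (right bar). The RNaseH1 boundary bars stand at 97.0% and 67.1%, while the bars for gene ends differ little.

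The height of the peaks was near that of other genes. Each gene's highest boundary fold had a median of 3.28 over the 32 genes with a peak (range 2.05 to 4.52), against 3.17 over the 13337 protein-coding genes with a boundary peak. The median fold of the whole RNaseH1 list was 3.07. The counting intervals of 25 genes held that list median, and those of TOP1, FANCM and FANCA lay below it. Those of DDX1, TOP3B, THOC7 and ATR lay above it, ATR only through a peak at its end, at the boundary of XRN1. The median highest folds of the groups were 3.06 for RNase H, 3.44 for helicases, 3.40 for topoisomerases, 3.34 for THO and export, 2.63 for Fanconi or BRCA and 3.32 for nucleases and checkpoint.

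**Figure D2:**
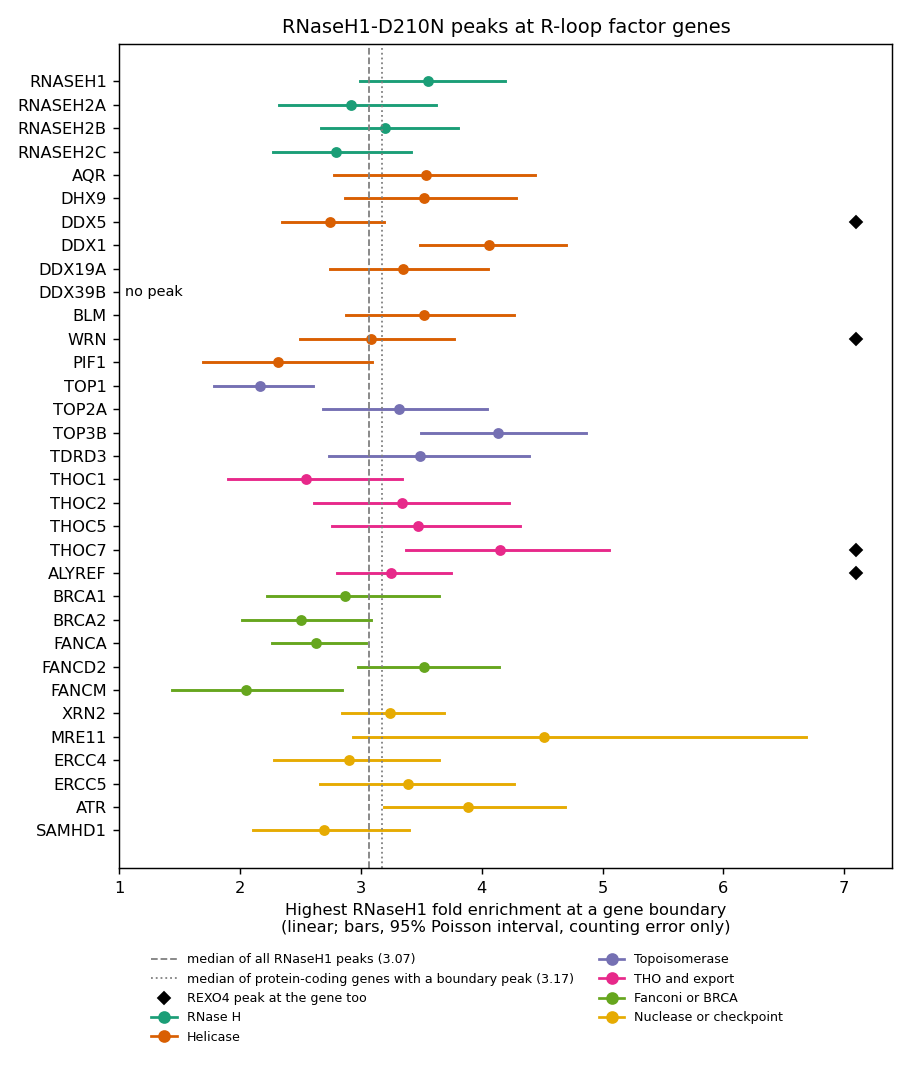
Highest RNaseH1 fold at a boundary of each gene (linear scale), coloured by group, with 95% Poisson intervals for counting error. Most intervals cross the dashed line at 3.07, the median of all RNaseH1 peaks, DDX39B has no peak, and diamonds mark the 4 genes with a REXO4 peak.

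All 4 RNase H genes had a RNaseH1 peak at the start. RNASEH1 encodes the enzyme that cuts the RNA of long hybrids and is also the gene whose coding sequence the transgene carries. Its start peak, chr2:3557860-3559282, was 1423 bp wide with 138 fragments against 38.1 expected, a fold of 3.56 (2.99 to 4.20) and a −log10 q of 31.9. A second peak, chr2:3536349-3536962, lay 21803 bp downstream of the start with 43 fragments against 13.1 expected and a fold of 3.12 (2.28 to 4.18). Its −log10 q of 8.07 was the highest of the 28 peaks deep inside factor genes. Whether reads of the transgene contribute to it was not tested, and exon positions were not used here.

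RNASEH2A, RNASEH2B and RNASEH2C encode the catalytic and the accessory subunits of RNase H2, which also removes single ribonucleotides from DNA. RNASEH2B had a start fold of 3.20 (2.67 to 3.81), RNASEH2A 2.92 (2.32 to 3.62) and RNASEH2C 2.80 (2.27 to 3.41). These intervals overlap one another and that of RNASEH1, so no order among the 4 RNase H genes was read from the folds. None of the 4 had a REXO4 peak, and RNASEH1 was the only one with a RNaseH1 peak deep inside.

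Of the 9 helicase genes, 8 had a RNaseH1 peak at a boundary, and 2 of them also had a REXO4 peak. DDX1, a DEAD-box RNA helicase of tRNA ligation and RNA processing, had the highest boundary fold of the group at 4.06 (3.49 to 4.70). Its peak, chr2:15591575-15592406, held 177 fragments against 42.9 expected, and its −log10 q of 48.7 was the highest among all factor genes. The promoter of DDX1 printed above lies wholly within it.

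The next helicase genes followed in a narrow band. AQR, an intron-binding helicase of the spliceosome, had a start fold of 3.54 (2.78 to 4.44). DHX9, which unwinds RNA and RNA:DNA hybrids, had 3.52 (2.87 to 4.28), and BLM, a RecQ helicase that dissolves joined DNA, also had 3.52 (2.87 to 4.27). DDX19A, a DEAD-box helicase related to the export factor at the nuclear pore, had 3.35 (2.74 to 4.05). Their intervals overlap almost entirely, so no order among these genes can be read from the folds.

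DHX9 showed 3 separate RNaseH1 peaks within a short stretch. The middle one spanned the start, and smaller peaks had summits 696 bp upstream with a fold of 2.95 (1.91 to 4.36) and 1154 bp downstream with a fold of 2.13 (1.56 to 2.85). DDX19A had a second peak 924 bp downstream of its start with a fold of 2.52 (1.73 to 3.56). Both genes share the region with an antisense or divergent RNA gene, DHX9-AS1 at the one and DDX19A-DT at the other.

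PIF1, a helicase that opens G-quadruplex DNA, had one of the 3 lowest boundary folds, 2.31 (1.70 to 3.09), at chr15:64825779-64826152 with 44 fragments against 18.5 expected. A second weak peak, chr15:64823849-64824337, had a fold of 2.25 (1.47 to 3.30). WRN, the RecQ helicase lost in Werner syndrome, had a boundary fold of 3.08 (2.49 to 3.77). DDX5, a DEAD-box helicase and transcription co-factor, had 2.75 (2.35 to 3.19), but over the widest peak of any factor gene, chr17:64505286-64507524, which is 2239 bp long with 170 fragments.

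DDX39B, which encodes the helicase UAP56 that loads export factors onto mRNA, had no peak in either list. The gene lies at chr6:31530226-31542003 on the minus strand, and the nearest RNaseH1 peak, chr6:31580901-31581195, began 38898 bp away. DDX39B sits within the HLA region, and there 36 of 128 protein-coding genes (28.1%) had a boundary peak in the stretch from HLA-F to HLA-DPB1, chr6:29723434-33089696, against 607 of 914 (66.4%) on the rest of chromosome 6. The peak density was 11.3 per Mb in that stretch and 14.9 per Mb on the rest of the chromosome. The RNaseH1 list also held 444 peaks on alternate contigs of chromosome 6, sequences that stand for other haplotypes. Whether reads of DDX39B were placed on those contigs or dropped was not tested, so its missing peak is not a measured absence of RNaseH1-D210N.

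All 4 topoisomerase genes had a RNaseH1 peak at the start, and the group held both a high and a low extreme. TOP3B, whose product passes strands of DNA and RNA, had a fold of 4.14 (3.499 to 4.86) at chr22:21982232-21983047, with 146 fragments against 34.5 expected. TOP1, which relaxes the supercoils made by transcription, had a fold of 2.17 (1.79 to 2.60) at chr20:41028297-41029818, with 112 fragments against 51.2 expected. The intervals of TOP3B and TOP1 do not overlap, so their difference exceeds counting error of the fragments, with the expected numbers taken as exact.

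TDRD3, the partner that brings TOP3B to chromatin, and TOP2A, which passes one DNA duplex through another in dividing cells, lay between them. TDRD3 had a boundary fold of 3.49 (2.73 to 4.39), and a second peak at another of its listed starts was wider and deeper at 1028 bp and 167 fragments but had a fold of 2.32 (1.98 to 2.70). TOP2A had a start fold of 3.31 (2.69 to 4.04). No topoisomerase gene had a REXO4 peak.

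All 5 genes of THO and mRNA export had a RNaseH1 peak at a boundary, and 2 of them, THOC7 and ALYREF, also had a REXO4 peak. THOC1, THOC2, THOC5 and THOC7 encode subunits of THO, the complex that packages nascent mRNA, and ALYREF encodes the adaptor that hands mRNA to the export receptor. THOC7 had the second highest boundary fold of all factor genes, 4.15 (3.37 to 5.05), at chr3:63864142-63864721 with 97 fragments against 22.6 expected. A second peak, chr3:63863288-63863886, had 163 fragments and a fold of 2.85 (2.43 to 3.32).

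The other THO genes had lower or middling values. THOC5 had a start fold of 3.48 (2.76 to 4.32) and a further peak 1134 bp downstream with 2.79 (1.97 to 3.85). THOC2 had 3.34 (2.61 to 4.23) and a small peak 794 bp upstream with 3.22 (2.00 to 4.94). THOC1 had 2.54 (1.90 to 3.34), the lowest of the group. Its interval stops just short of that of THOC7 with the expected numbers taken as exact, so a difference was not established. ALYREF had 3.25 (2.81 to 3.75) from 188 fragments over 1856 bp.

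All 5 Fanconi or BRCA genes had a RNaseH1 peak at a boundary and none had a REXO4 peak. FANCD2, which is ubiquitinated at stalled forks, had the highest fold of the group at 3.52 (2.97 to 4.15). FANCA, part of the core complex that adds that ubiquitin, had 2.63 (2.26 to 3.04), and BRCA2, which protects stalled forks, had 2.51 (2.02 to 3.08). FANCM, a translocase that anchors the core complex at forks, had the lowest boundary fold of all factor genes, 2.05 (1.44 to 2.84).

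The FANCM peak, chr14:45135952-45136312, rested on 34 fragments against 16.1 expected and had a −log10 q of 2.28. It began just inside the gene, which is why the 250 bases printed above for FANCM lie outside it. The GC content of the 300 bases around its start was 48.0%, the lowest of the 31 factor promoters. The interval of FANCM stops just short of that of FANCD2 with the expected numbers taken as exact, so a difference was not established.

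BRCA1, a ubiquitin ligase of homologous recombination, carried 8 RNaseH1 peaks, the most of any factor gene. RefSeq lists 2 starts for it, and none of the 8 summits lay downstream of the inner start. The peaks at the outer start, beside NBR1, had folds of 2.87 (2.22 to 3.64) and 2.85 (2.15 to 3.70). Those at the inner start, beside NBR2, had folds of 1.83 (1.32 to 2.49) and 1.85 (1.31 to 2.54) with −log10 q of 1.77 and 1.66, which puts them among the weakest in the list. Values at either start of BRCA1 cannot be assigned to BRCA1 rather than to its neighbour.

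All 6 nuclease or checkpoint genes had a RNaseH1 peak at a boundary and none had a REXO4 peak. MRE11, the nuclease of the MRN complex, had the highest boundary fold of all factor genes, 4.52 (2.93 to 6.68), yet this peak at chr11:94512465-94512813 held only 23 fragments against 4.32 expected. It lies at the outer boundary of MRE11 beside C11orf97. At the other listed start of MRE11, beside ANKRD49, the peak was deeper with 95 fragments, and its fold was 3.25 (2.63 to 3.96) with a −log10 q of 19.2. The first rank of MRE11 thus rests on a shallow peak whose interval reaches down past the list median.

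ATR, the kinase that answers stalled forks, had its highest fold, 3.89 (3.19 to 4.69), at its end, where the peak lies at the boundary of XRN1. At the start of ATR the fold was 3.33 (2.80 to 3.93). XRN2, an exonuclease that ends transcription by degrading the downstream RNA, had 3.24 (2.84 to 3.69) from 230 fragments, the most of any RNaseH1 peak here. ERCC5, the XPG nuclease of nucleotide excision repair, had 3.39 (2.66 to 4.26), and ERCC4, the XPF nuclease of the same pathway, had 2.90 (2.28 to 3.65). SAMHD1, a dNTP hydrolase that also aids end resection, had 2.69 (2.103 to 3.40). The start folds of this group overlap in their intervals, and the interval of the end peak of ATR overlaps each of them.

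**Figure D3:**
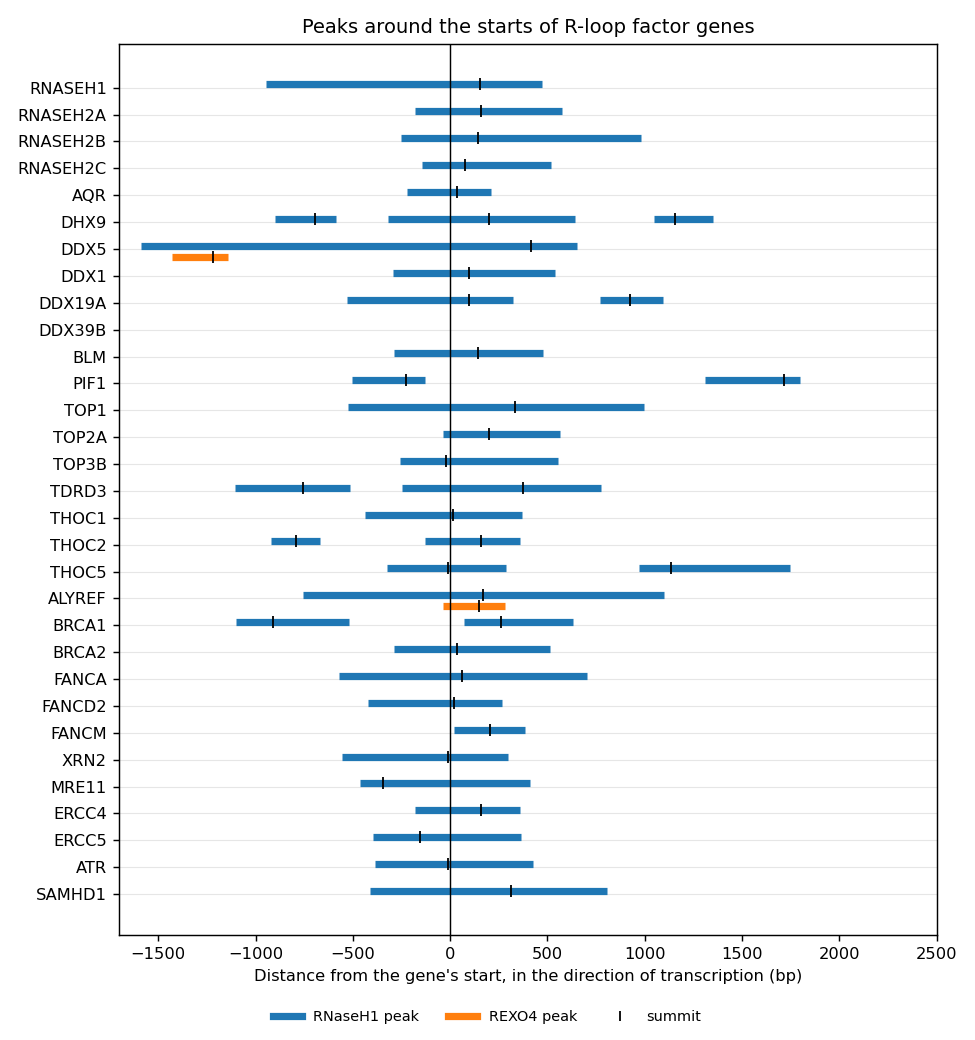
Peaks around the starts of the 31 genes with a listed start, in bp from the listed start nearest the clearest RNaseH1 summit, in the direction of transcription (RNaseH1 in blue, REXO4 in orange, ticks at summits). Most RNaseH1 peaks span the start with the summit just downstream, and DDX5 and ALYREF also show a REXO4 peak.

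The position of the start peaks was like that of other genes. Taking the peak of lowest q at each gene, the summit lay a median of 99 bp downstream of the start over 30 factor genes, against 93 bp over 11077 protein-coding genes. It was downstream in 22 of the 30 factor genes (73.3%), against 67.6% of protein-coding genes. Summits of TOP3B, THOC5, XRN2 and ATR lay at most 24 bp upstream of the start. Those of ERCC5 at 154 bp, PIF1 at 226 bp and MRE11 at 343 bp lay further upstream. The BRCA1 summit lay 912 bp upstream, in the direction of NBR1.

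Close neighbours were about as common as elsewhere. Of the 33 genes, 15 (45.5%) had a boundary of another gene within 1 kb of their own start or end, against 41.7% of protein-coding genes. At the summit of the start peak, 11 factor genes had another gene's boundary within 1 kb. A RNaseH1 boundary peak was listed for 14 of these 15 factor genes, against 83.3% of protein-coding genes with a close neighbour. It was listed for 18 of the 18 factor genes without a close neighbour, against 55.5% of such protein-coding genes. REXO4 peaks were listed at 3 of the 15 factor genes with a close neighbour, against 4.33% of such protein-coding genes. They were listed at 1 of the 18 without, against 3.45%. That gene was THOC7, and a boundary of ATXN7 still lay within 1 kb of its REXO4 summit. At such shared boundaries a peak belongs to both genes and cannot be assigned to the factor gene alone.

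The promoters were close to the others in GC content. In the 300 bases around the start, the median GC content was 63.7% over 31 factor genes, against 62.7% over 15843 protein-coding genes. The ratio of observed to expected CpG was 0.925, against 0.761. Over 5 classes of promoter GC of about equal size, from low to high, the factor genes with a RNaseH1 start peak were 1 of 1, 7 of 8, 11 of 11, 8 of 8 and 3 of 3. The share of protein-coding genes with one was 28.8%, 62.8%, 78.3%, 87.7% and 90.4% in the same classes. DDX39B, in the second class, was the exception without a peak, while FANCM, alone in the lowest class, had its weak one.

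For REXO4 the shares over the same classes were 1.49%, 1.84%, 1.68%, 3.13% and 12.2%. ALYREF, with a promoter GC content of 72.7%, lay in the highest class together with FANCA and XRN2, which had no REXO4 peak. DDX5 lay in the middle class.

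Short motifs were searched on both strands of the same 300 bases. The GC box GGGCGG was found in 18 of 31 factor promoters (58.1%), against 58.3% of all 15843. CCAAT was found in 12 (38.7%), against 36.4%, and TATAAA in 3 (9.68%), against 9.75%. The ETS core CCGGAAG was found in 15 (48.4%), against 14.2%. Since 30 of the 31 factor genes had a RNaseH1 start peak, the shares among protein-coding genes with such a peak are the closer comparison. These were 71.5% for the GC box, 36.0% for CCAAT, 5.44% for TATAAA and 18.5% for the ETS core. Among protein-coding genes without a RNaseH1 start peak they were 27.7%, 37.3%, 19.7% and 4.05%. Beside genes with a peak, factor promoters thus held the ETS core more often and the GC box less often, as a description with no test. The motifs, like the genes, were chosen with earlier results of these data known. None of these strings contains another, although a match of one may share bases with a match of another.

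Of the 20 ETS matches in those 15 promoters, 17 (85.0%) lay within 100 bases of the start, against 72.8% of the 2733 matches in protein-coding promoters. The window holds only 250 bases before the start and 50 from it on. In DDX1 the match began 18 bases before the start, inside the RNaseH1 peak. ALYREF had 2 matches, 56 and 36 bases before the start, of which the nearer lay mostly in the capitals printed above. DDX39B, which had no peak, also held a match, 14 bases before its start.

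The peaks deep inside the genes held fewer fragments than those at the starts. RNaseH1 peaks with a summit over 1 kb from both boundaries and from any listed start were found in 17 of 33 factor genes (51.5%), against 42.0% of protein-coding genes, and REXO4 peaks of this kind in none, against 1.35%. Factor genes were long, with a median of 53.5 kb against 24.5 kb, and per length they held fewer such RNaseH1 peaks, 1.35 per 100 kb against 1.58. By length class, from short to long, factor genes had them in 0 of 4 under 10 kb, 3 of 7 from 10 to 30 kb, 3 of 6 from 30 to 60 kb, 7 of 10 from 60 to 100 kb and 4 of 6 over 100 kb. The shares for protein-coding genes in the same classes were 11.6%, 35.0%, 52.3%, 64.5% and 80.1%. In each class the count of factor genes was within about 1 gene of what the share of protein-coding genes gives.

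These 28 inner peaks were shallow. They held a median of 18.5 fragments against 5.80 expected and a median −log10 q of 3.20. The 39 start peaks held a median of 80 fragments against 26.8 expected and a median −log10 q of 15.3. A peak of THOC5, which reaches the start window with its summit further inside, counts in both sets. A −log10 q of 5 or more was reached by 7 of the 28 inner peaks and by 32 of the 39 start peaks. In 3 inner peaks, and in no start peak, the expected pileup lay within 1% of the lowest value of the whole list, 2.97 fragments. A high fold inside a gene therefore rests on few fragments, and no inner peak had an interval above the list median.

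**Figure D4:**
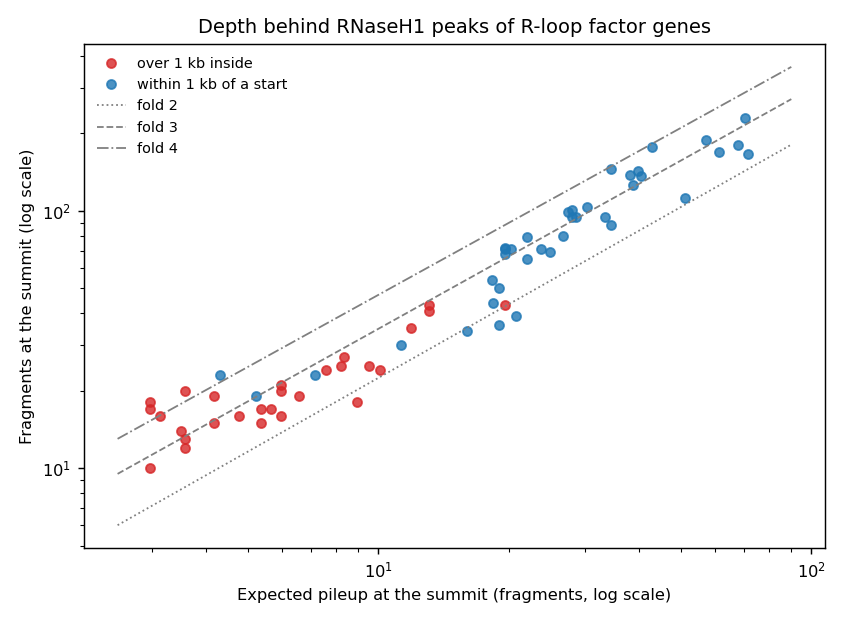
Fragments at the summit against the pileup expected there, both on log scales, for RNaseH1 peaks inside factor genes (red) and at their starts (blue), with lines of equal fold. Inner peaks fill the shallow corner and start peaks the deep one at like folds, with medians of 18.5 and 80 fragments.

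The highest inner folds illustrate this. BRCA2 had an inner peak of fold 4.79 (2.94 to 7.43) from 18 fragments, 42736 bp past its start. BLM had one of 4.59 (2.89 to 6.98) from 20 fragments, XRN2 one of 4.54 (2.75 to 7.12) from 17 and AQR one of 4.12 (2.46 to 6.54) from 16. Each exceeds the gene's own start fold, but in all 4 genes the intervals of the inner and the start peak overlap. The inner fold lay above the start interval in BRCA2, BLM and XRN2 and within it in AQR. Overlap of intervals does not show that the folds are equal.

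Some genes carried several inner peaks. FANCA and BRCA1 had 4 each, with folds of 2.47 to 3 in FANCA and 2.71 to 3.10 in BRCA1. Those of BRCA1 all lay between its 2 listed starts. Their summits were 1490, 9993 and 10568 bp upstream of the inner start and 17748 bp downstream of the outer one. TOP1 had 3, with folds of 2.52, 3.34 and 2.95 against 2.17 at its start. BLM, THOC5 and ATR had 2 each. The Fanconi or BRCA group held 9 of the 28 inner peaks, the helicases 6, the nucleases and checkpoint 6, the topoisomerases 4, THO and export 2 and RNase H 1. Median gene lengths in the same order were 79.1, 39.2, 74.2, 62.5, 47.9 and 16.8 kb. The counts are not adjusted for gene length or for the number of genes, so they do not rank the groups.

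**Figure D5:**
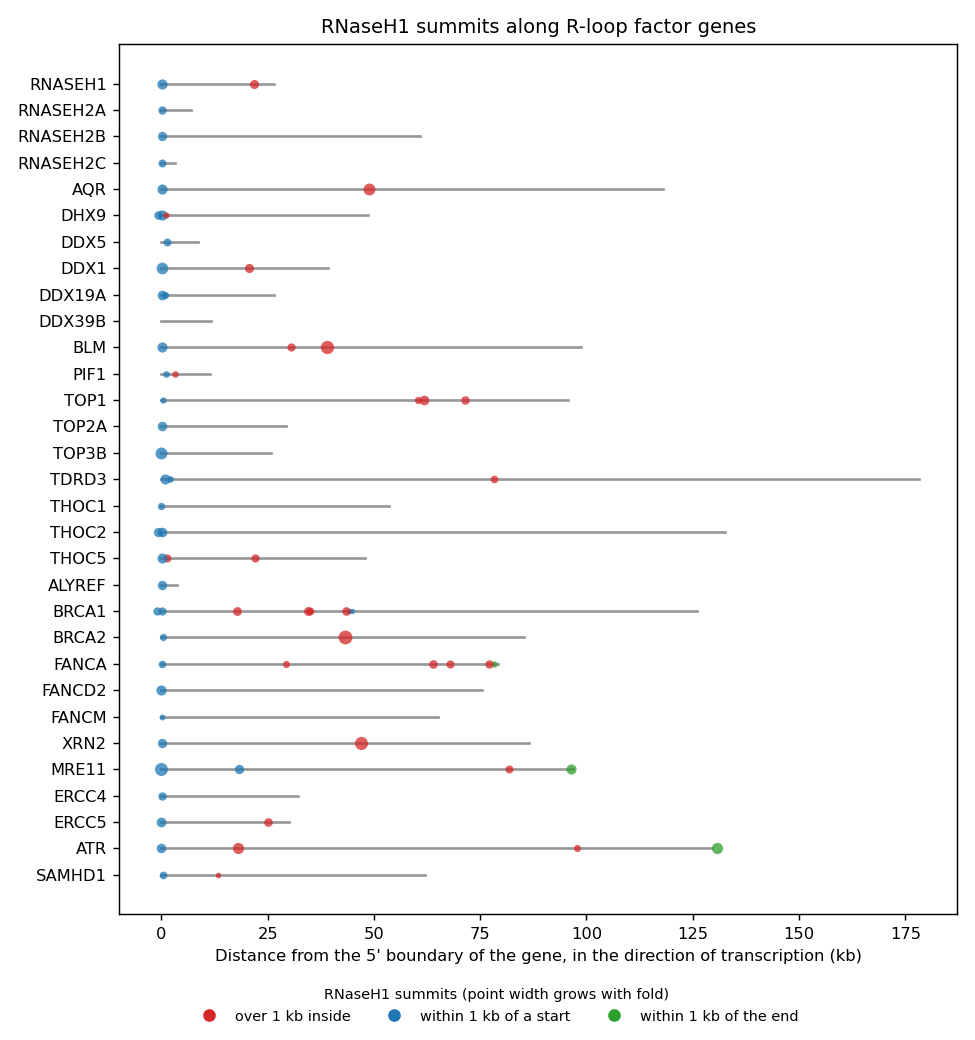
RNaseH1 summits along each gene, in kb from its 5′ boundary in the direction of transcription, with point width growing with fold and grey lines for gene length. Inner summits (red) were found in 17 genes, most of them long, while the ends carry a peak in FANCA, MRE11 and ATR.

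The 4 genes with a REXO4 peak all had a RNaseH1 boundary peak as well, as did 693 of the 758 protein-coding genes with a REXO4 boundary peak (91.4%). In 3 of them the REXO4 peak overlapped a RNaseH1 peak by at least 1 bp. The same share over the whole REXO4 list is not given here, so this count stands without a comparison. ALYREF had the most significant REXO4 peak of the 4, chr17:81891302-81891622, with 246 fragments against 124 expected, a fold of 1.97 (1.74 to 2.23) and a −log10 q of 17.3, above 91.2% of the REXO4 list. Its summit lay 20 bp from that of the RNaseH1 peak, inside which it falls whole, and 151 bp downstream of the start. ANAPC11 has a boundary within 1 kb of it.

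The other REXO4 peaks were weaker or placed apart. At THOC7 the peak, chr3:63863860-63864174, had 155 fragments against 92.9 expected, a fold of 1.66 (1.41 to 1.94) and a −log10 q of 4.82. It lay between the 2 RNaseH1 peaks of THOC7 and touched them by only 27 and 33 bp, next to ATXN7. At DDX5 the peak, chr17:64507081-64507365, had 73 fragments against 39.8 expected, a fold of 1.81 (1.43 to 2.27) and a −log10 q of 2.42. It fell whole within the wide RNaseH1 peak, but its summit lay 1633 bp from that peak's summit and 288 bp upstream of the gene, on the side of CEP95.

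At WRN the REXO4 peak, chr8:31032776-31033212, had 28 fragments against 10.7 expected, a fold of 2.47 (1.67 to 3.53) and a −log10 q of 1.99. It did not overlap a RNaseH1 peak, the nearest lying 488 bp away at chr8:31033700-31034164, and PURG has a boundary within 1 kb. The median fold of the REXO4 list was 2.30, and the intervals of ALYREF, THOC7 and DDX5 lie below it while that of WRN holds it. REXO4-D386A folds at 3 of these genes were thus low for their own list, and ALYREF had by far the deepest peak.

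A further 70 genes of R-loop biology outside the 33 was read in the same way. A RNaseH1 boundary peak was listed for 68 of 70 (97.1%), against 67.1% of all protein-coding genes. The median highest fold was 3.05, against 3.17 over protein-coding genes with a boundary peak. RPA3, a subunit of the single-strand binding protein RPA, and RBBP8, which encodes the resection factor CtIP, were the genes without one. The highest fold among them was 5.52 at REXO4 itself, the endogenous gene of the other protein studied. A REXO4 boundary peak was listed at 1 of the 70 (1.43%), against 3.82% of all protein-coding genes. It was at NBN, the third partner of the MRN complex, with a fold of 2.16 and a −log10 q of 9.38.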

How the data were processed

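Per the submitters' processing notes, the authors used MACS2 2.1.0.20150731, HISAT2 2.2.1, Trim Galore 0.6.10, deepTools 3.5.1, SAMtools 1.17 and Cufflinks with build hg38. Not given in the sources used here are the control, the pooling of replicates, the handling of reads that map to several places and the peak threshold. Peak names in both lists carry the label ChIPseq2, so each list may rest on 1 replicate. The deposited fold of a peak is a ratio to expected pileup, the deposited −log10 p and −log10 q are the caller's, and the deposited score was not used.

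Fragments and expected pileup were recovered from fold and p with a tolerance of 0.05 fragments, giving whole numbers for 100% of RNaseH1 and 99.93% of REXO4 peaks. The depth of each library is unknown. Of 59792 RefSeq genes (GRCh38.p14), 831 without an ordered position were left out. Strand and starts came from the RefSeq promoter table. Overlap meant at least 1 bp. The 33 genes and the lists and motifs were chosen with earlier results of these data known. All 33 genes are named, and positions are given for the 3 highest and 3 lowest boundary folds, genes with a REXO4 peak, genes without a RNaseH1 peak and RNASEH1. Other values were added after they were seen. The recovery and overlap steps were tested on simulated data. Alternatives changed window, q threshold, overlap and peak class. Scripts ran in Python 3.11.15 with pandas 2.3.3, SciPy 1.17.1, NumPy 2.4.6 and matplotlib 3.10.9.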

Additional observations from a re-analysis of the deposited data

Results flagged for a closer look

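The RNaseH1 list held 444 peaks on alternate contigs of chromosome 6, which stand outside every count of genes given for the 33 factor genes. They drew attention because the sequence used for DDX39B belongs to the same chromosome and DDX39B had no peak. Of the RNaseH1 peaks, 1366 lay on alternate contigs of any chromosome, and of the REXO4 peaks 40, of which 1 was on chromosome 6. The part of these peaks in the missing DDX39B peak was not tested.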

How the results depend on the processing

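No paired analysis was possible because the peak lists hold no value for each library. Of 26 alternative counts, 22 stayed within 1.5 times the count given. The RNaseH1 boundary count ranged from 30 to 32 genes. It was 30 with a window of 500 bp (without DDX39B, TDRD3 and PIF1), against 63.8% of protein-coding genes. It was also 30 with a −log10 q of 5 or more (without DDX39B, FANCM and PIF1), against 58.9%. With the summit in the window it was 30 again (without DDX39B, PIF1 and DDX5), against 64.9%. Requiring a summit over 1 kb inside moved the RNaseH1 gene body count to 17 and the REXO4 one to 0, which follows from leaving out start peaks. A −log10 q of 5 or more left 1 REXO4 boundary gene, against 2.12% of protein-coding genes, and 1 REXO4 gene body, against 2.64%, ALYREF in both. An overlap of at least 0.5 of the narrower peak left 2 shared genes and lost THOC7. With inner peaks included, the highest fold changed in 7 genes, and the median was 3.35. BLM (4.59), TOP1 (3.34), BRCA2 (4.79) and XRN2 (4.54) moved most, to above the interval of their boundary fold. Their inner intervals still overlap the start interval. The peak at a gene start and the count outside the HLA region were alternatives chosen after seeing the data. The shallow inner peaks limit every statement on them, and low values of REXO4 limit its counts.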
